A study of Chrysanthemum x morifolium with 4 samples.

Results

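Leaves of chrysanthemum that had been acclimated to cold and were then frozen were compared with acclimated leaves that were not frozen, to describe the freezing step within acclimated plants. Each side was 1 RNA-seq library. The acclimated then frozen library came from seedlings of the cultivar Jinba kept at 4 °C for 24 h and then at -4 °C for 4 h. The acclimated library came from seedlings kept at 4 °C for 24 h only. No library was kept at 4 °C for the further 4 h, so freezing and added time under treatment cannot be told apart. The pair from plants with no acclimation is set beside it: leaves frozen at -4 °C for 4 h, and control leaves kept in normal conditions. That pair is also called a freezing step below. It spans the whole change from normal conditions to -4 °C, so chilling and freezing cannot be told apart in it. Plants in all 4 groups were raised from tissue culture for 20 days, moved to pots of peat and perlite and kept there for 3 days before treatment; culture was under a 16 h photoperiod at 25 °C by day and 22 °C by night. Each library mixed leaves from 3 replicates of its treatment, so differences between plants were averaged within a library and not measured. No p-value is given, and the intervals printed on ratios and on shares of counts cover counting error only.

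The unit of description was the unigene, a transcript pieced together from sequencing reads and known here by an assembly identifier. All 48004 unigenes with at least 10 counts summed over the 4 libraries were taken, of 93837 listed. Just inside that limit, 1590 unigenes had 10 counts and a ratio, of which 14 met the rule given below for a higher call and 0 that for a lower one. Just outside it, 1849 had 9 counts, with 13 and 0. With so few counts in all, the rule cannot give a lower call between libraries of these sizes, so neither 0 is a finding. The acclimated then frozen library held 14024558 counts and the acclimated library 15179341, of which these unigenes took 99.7% in each. The files do not pair these identifiers with gene names, so no pathway list was applied, leaf markers could not be looked up, and only 4 unigenes are named, by identifier.

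Cold acclimation is exposure to low but non-freezing temperature, after which many temperate plants survive harder freezing. In Arabidopsis it works in part through CBF transcription factors, which switch on protective genes for dehydrins, membrane lipid changes and compatible solutes. Freezing itself forms ice outside the cells, draws water out of them and so adds dehydration and membrane strain to the cold. Which unigenes of this table belong to those pathways is not known from the files.

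Set against the acclimated library, the acclimated then frozen library showed many large increases and few large decreases, while most transcripts with many counts stayed within 2-fold. In a library made from whole leaves, fewer cells that express a gene and less RNA per cell cannot be told apart. A call of higher or lower required that the exact 95% interval of the ratio, taken after TMM scaling (trimmed mean of M-values) of the libraries, lie entirely beyond 2-fold. Of the 47425 unigenes with a count on either side, 2674 (5.64%) were called higher in the acclimated then frozen library than in the acclimated library, and 720 (1.52%) were called lower. Higher unigenes were thus 78.8% of all calls. The median log2 ratio over all unigenes was -0.08, with quartiles of -0.62 and 0.57. That centre moves with the scaling, from -0.16 with total counts to -0.0030 with TMM over the pair alone, so nothing is read from its sign. Of the 5719 unigenes with at least 1000 counts over the pair, 4971 (86.9%) had an interval wholly inside 2-fold. The lean to higher calls depended on the rule: with an interval that merely excluded equal levels, 8090 unigenes (17.1%) were higher and 9354 (19.7%) lower, or 46.4% higher. With a difference of at least 1 in log2(FPKM + 1) as the rule, 3463 (7.3%) were higher and 2055 (4.33%) lower, or 62.8% higher.

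**Figure D1:**
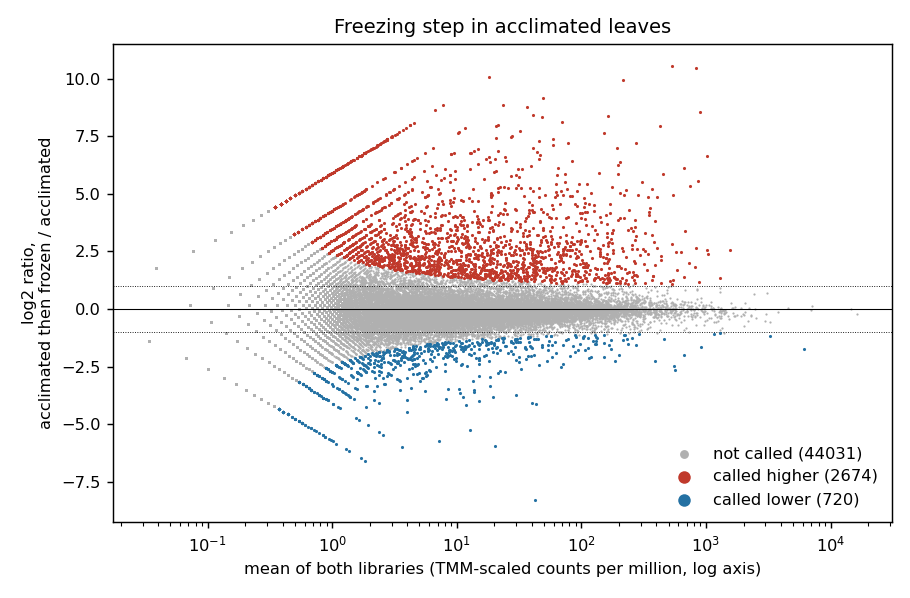
Each point is a unigene, placed by its mean TMM-scaled CPM over both libraries (log axis) and its log2 ratio of the acclimated then frozen over the acclimated library. Points called higher (2674, red) reach ratios above 10 and points called lower (720, blue) cluster nearer to equality, with dotted lines at 2-fold.

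The imbalance widened with the size of the change. Beyond 4-fold lay the intervals of 1106 unigenes on the higher side (2.33%) and 102 on the lower (0.215%), and beyond 8-fold those of 455 (0.959%) and 23 (0.0485%). Beyond 64-fold there were 30 higher unigenes (0.0633%) and 1 lower (0.00211%). Freezing without acclimation, set against control leaves, gave 2479 higher (5.19%) and 1024 lower (2.15%) unigenes beyond 2-fold among 47734 compared. It gave 518 (1.09%) and 42 (0.088%) beyond 8-fold and 54 (0.113%) and 0 beyond 64-fold. In both pairs the frozen library therefore had far more large increases than large decreases. The difference between the pairs was not tested.

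**Figure D2:**
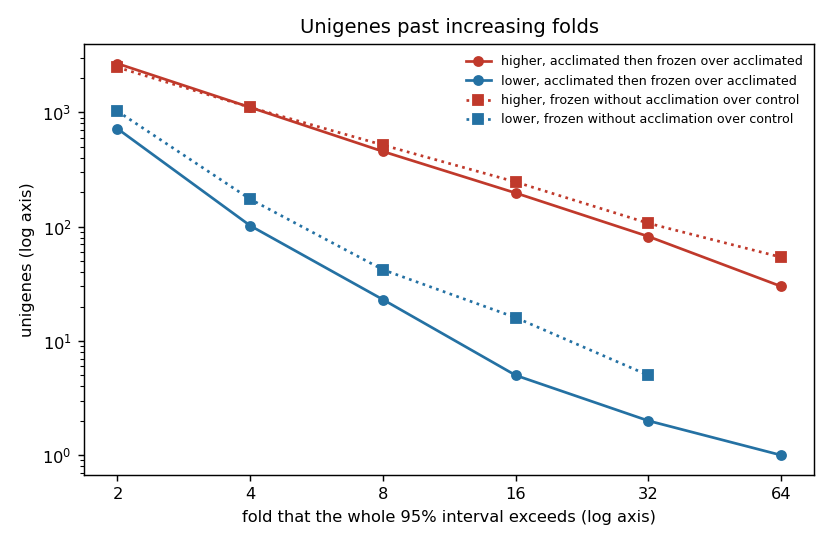
Number of unigenes (log axis) whose 95% interval lay wholly beyond each fold (log axis), for higher (red) and lower (blue) unigenes. Solid lines with circles show acclimated then frozen over acclimated, and dotted lines with squares show frozen without acclimation over control, which has no lower unigene at 64-fold; at 8-fold the solid lines stand at 455 and 23.

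The unigenes called higher were scarce transcripts before the freeze and moderately abundant after it. Their median level was 7.72 FPKM (fragments per kilobase of unigene, scaled to library size) in the acclimated then frozen library and 0.871 FPKM in the acclimated library. They were chosen on these 2 libraries, so the gap between them is a description. The other pair was not used to choose them: there the same unigenes had a median of 5.45 FPKM in leaves frozen without acclimation and 0.909 FPKM in control leaves. Their medians in the unfrozen libraries, with and without acclimation, were thus close to each other. They took 13.7% of counts (exact 95% interval 13.67 to 13.70%) in the acclimated then frozen library and 2.66% (2.65 to 2.67%) in the acclimated library.

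The unigenes called lower had another profile across the 4 libraries. Their median was 0.928 FPKM in the acclimated then frozen library and 5.35 FPKM in the acclimated library, on which they were chosen. Leaves frozen without acclimation had a median of 2.57 FPKM and control leaves 2.95 FPKM for the same unigenes. That the acclimated and the acclimated then frozen library are the extremes follows from how the set was chosen. They held 1.22% of counts (1.21 to 1.22%) in the acclimated then frozen library and 3.87% (3.86 to 3.88%) in the acclimated library.

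**Figure D3:**
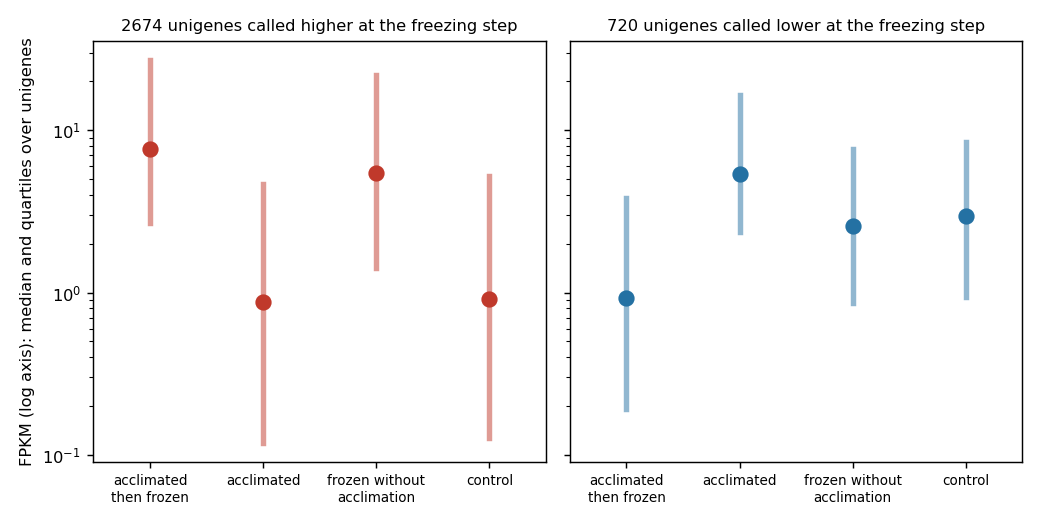
FPKM (log axis) of the unigenes called higher (left, 2674) and lower (right, 720) in each of the 4 libraries; dots are medians over unigenes and bars run between the quartiles. The higher set has medians of 7.72 and 5.45 FPKM in the frozen libraries and under 1 FPKM in both unfrozen ones, while the medians of the lower set are 0.928 and 5.35 FPKM in the acclimated then frozen and the acclimated library, on which it was chosen.

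Summed over the 2674 higher unigenes, the acclimated then frozen library exceeded the acclimated library by 120159 CPM (counts scaled by TMM to a common library size). It took the 104 unigenes with the largest gains to reach 50% of that sum, and 650 to reach 90%. The 720 lower unigenes fell short by 26502 CPM in all, of which 7 unigenes made up 50% and 136 made up 90%. A single unigene, described next, accounted for 25.2% of the decrease, while no unigene accounted for more than 1.84% of the increase.

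Unigene c81421.graph_c0 was the lower unigene with the largest difference in CPM. The length implied by its count and FPKM was 8134 bases. It had 323 FPKM in acclimated then frozen leaves and 1141 FPKM in acclimated leaves, against 167 FPKM in leaves frozen without acclimation and 519 FPKM in control leaves. Its counts in that order of libraries were 36857, 140852, 19481 and 66671. Each frozen library was thus lower than its unfrozen partner, by a similar ratio: the log2 ratio was -1.75 (95% interval -1.76 to -1.73) after acclimation and -1.80 (-1.82 to -1.78) without it. Its rank by FPKM among all listed unigenes was 246 in acclimated then frozen leaves and 45 in acclimated leaves.

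Unigene c112305.graph_c0 had the lower ratio farthest from equality, and it stood out in the acclimated library alone. It had 3 counts (0.319 FPKM) in acclimated then frozen leaves and 1258 counts (124 FPKM) in acclimated leaves. In leaves frozen without acclimation it had 45 counts (4.68 FPKM), and in control leaves 12 counts (1.13 FPKM). The log2 ratio after acclimation was -8.30 (-10.81 to -6.98). Without acclimation the ratio went the other way, at 1.84 (0.94 to 2.94). The difference between the ratios has no replicate check.

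Unigene c113393.graph_c0, implied length 1663 bases, had the higher ratio farthest from equality. It had 21812 counts (935 FPKM) in acclimated then frozen leaves and 17 counts (0.673 FPKM) in acclimated leaves. Leaves frozen without acclimation had 28482 counts (1194 FPKM) and control leaves 36 counts (1.37 FPKM). It held few counts in both unfrozen libraries and was abundant in both frozen ones, ranking 57 by FPKM in acclimated then frozen leaves. The log2 ratio was 10.47 (9.83 to 11.29) after acclimation and 9.58 (9.13 to 10.12) without it.

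Unigene c111793.graph_c0 had the largest gain in CPM among the higher unigenes, and its freezing ratio was larger in acclimated leaves. It had 34620 counts (824 FPKM) in acclimated then frozen leaves and 6691 counts (147 FPKM) in acclimated leaves. Leaves frozen without acclimation had 9663 counts (225 FPKM) and control leaves 4985 counts (105 FPKM). The log2 ratio was 2.56 (2.52 to 2.60) after acclimation and 0.93 (0.88 to 0.98) without it, and these counting intervals do not overlap, with no replicate check. Its gain was 1.84% of the summed gain of all higher unigenes.

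Some unigenes went from no count to clear presence. A count of 0 allows a level of up to 0.230 CPM in the acclimated then frozen library and 0.202 CPM in the acclimated library, taking 3 counts as the limit. Of the 47425 unigenes with a count on either side, 446 had 0 counts in the acclimated library and at least 10 in the acclimated then frozen library. All 446 met the rule for a higher call, which was fixed in advance, because 10 counts against 0 already meet it. The highest of them reached 472 counts, which is 179-fold higher when set against 3 counts in the acclimated library, leaving aside the counting error of the 472. The reverse, 0 counts after freezing and at least 10 in the acclimated library, was found for 150 unigenes, the highest at 54 counts. Of these 150, 105 met the rule for a lower call. In this direction 10 counts against 0 cannot meet it, given the scaled sizes of the libraries. The calls among the 446 and the 150 are therefore not compared. With a minimum of 30 counts the numbers were 82 and 6.

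The libraries without acclimation, which had no part in choosing these unigenes, differed between the 2 groups. Of the 446 that appeared at freezing, 197 (44.2%) also had at least 10 counts in leaves frozen without acclimation, while 26 (5.83%) had that many in control leaves. No count in control leaves was found for 252 of them (56.5%). Of all 48004 unigenes, 2823 had no count in control leaves and 1244 had none in leaves frozen without acclimation. The share of all unigenes with at least 10 counts in each library is not given here. Of the 150 that were lost, 34 (22.7%) had at least 10 counts in leaves frozen without acclimation and 39 (26.0%) in control leaves. The appearing unigenes were thus commoner in the frozen than in the control library, whereas the lost ones showed no such gap.

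The freezing step after acclimation was larger in classes where the freezing step without it was larger. The ratios compared here have no library in common, but they share the scaling and the filter, which sums counts over all 4 libraries. Where freezing without acclimation gave a log2 ratio above 5, the median log2 ratio after acclimation was 3.65 over 454 unigenes, and 301 of them (66.3%) were called higher. The median was 1.77 over 2125 unigenes in the class from 3 to 5, where 27.2% were called higher. It was 0.48 over 6824 unigenes in the class from 1 to 3, with 15.3% called higher. Over all unigenes 5.64% were called higher. The shares, unlike the order of the classes, depended on the filter. With no minimum on counts 17.3% of the class from 3 to 5 and 7.45% of the class from 1 to 3 were called higher, against 3.46% over all. With at least 100 counts these shares were 71.0% and 35.8%, against 6.89% over all.

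The classes without a clear increase had lower medians. In the class from -1 to 1 the median after acclimation was -0.13 over 31693 unigenes, with 2.05% called higher and 1.32% lower. That median moved with the scaling, from -0.21 with total counts to -0.049 with TMM over the pair alone, so nothing is read from its sign. In the class from -3 to -1 the median was -0.44 over 5282 unigenes, with 3.12% called lower. Where freezing without acclimation gave a log2 ratio of -3 or lower, it was -0.73 over 777 unigenes, with 3.73% called lower, against 1.52% over all unigenes. With no minimum on counts the shares called lower were 1.59% and 1.76% in these classes, against 0.926% over all. The median of counts over the pair was 11 in the class from -3 to -1, as in the class from 3 to 5, and 7 in the lowest class. Among unigenes with at least 100 counts over the 4 libraries the medians ran from -0.89 in the lowest class (53 unigenes, 24.5% called lower) to 4.75 in the highest (247 unigenes, 83.0% called higher).

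**Figure D4:**
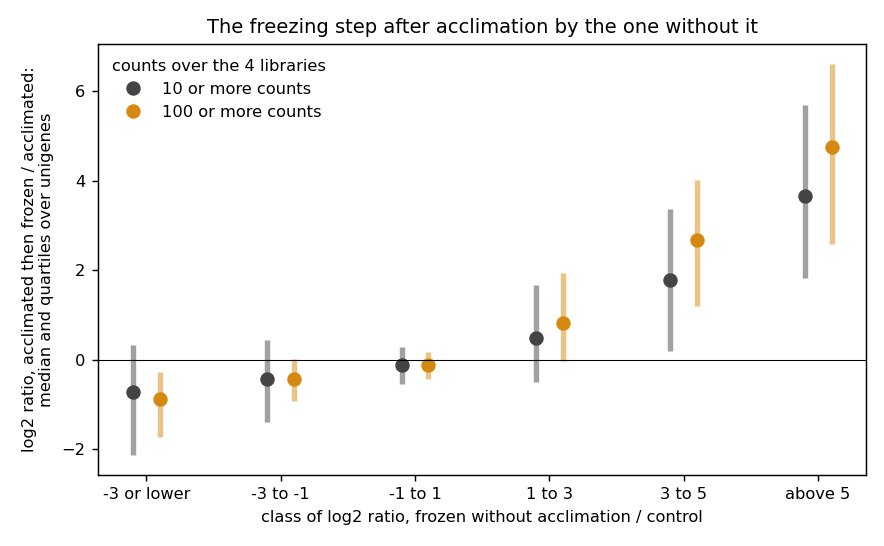
Log2 ratio of acclimated then frozen over acclimated leaves (vertical axis) in classes of the log2 ratio of leaves frozen without acclimation over control (horizontal axis). Dots are medians and bars quartiles over unigenes with at least 10 counts (dark) or at least 100 counts (orange) over the 4 libraries; the medians climb from left to right in both, to 3.65 and 4.75.

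Read the other way, 91.3% of the unigenes called higher after acclimation that had a count in the other pair also had a positive log2 ratio without acclimation, where 50.8% of all unigenes did. For the unigenes called lower, 63.9% had a negative ratio without acclimation, against 49.2% of all unigenes. By calls, 1222 of the 2674 higher unigenes (45.7%) were also called higher without acclimation and 7 were called lower. Of the 720 lower unigenes, 82 (11.4%) were also called lower without acclimation and 42 were called higher. Over all unigenes compared in that pair, 5.19% were called higher and 2.15% lower. Among the 455 higher beyond 8-fold the median log2 ratio without acclimation was 4.13, or 3.83 with zeros set to 3 counts. Among the 23 lower beyond 8-fold it was 0.14, or -0.24 with zeros set to 3 counts, so that this set had no clear direction without acclimation. An interval wholly inside 2-fold without acclimation was found for 284 (10.6%) of the higher unigenes and 180 (25.0%) of the lower ones, against 34.1% of all unigenes with both ratios. An interval can lie inside 2-fold only where counts are many enough, so these shares depend on counts as well as on ratios.

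Calls were also counted by level in control leaves, a library outside the comparison. Of unigenes at 100 FPKM or more in control leaves, 2.01% were called higher and 2.36% lower (846 unigenes). The share called higher was 3.81% at 10 to 100 FPKM and 4.54% at 1 to 10 FPKM. It was 6.22% above 0 and under 1 FPKM, although the median of counts over the pair was only 9 there. Lower calls showed no such order, at 1.34%, 1.86% and 1.21% in the same classes. Unigenes with no count in control leaves were called higher in 18.5% of 2795 cases, but a unigene enters that class only through counts in the 3 cold-treated libraries. The classes under 1 FPKM depended on the filter. With no minimum on counts the share called higher was 2.41% at 0 and 3.47% above 0 and under 1 FPKM, the second of these below the 4.47% at 1 to 10 FPKM. With at least 100 counts the shares were 81.8% and 41.6%. With the 2-fold rule, an order across control levels therefore holds from 1 FPKM up under each of these filters, and not below it. It depended on that rule. With an interval that only excluded equal levels, the share called higher rose instead. It was 14.1% at 1 to 10 FPKM, 20.9% at 10 to 100 FPKM and 27.9% at 100 FPKM or more.

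**Figure D5:**
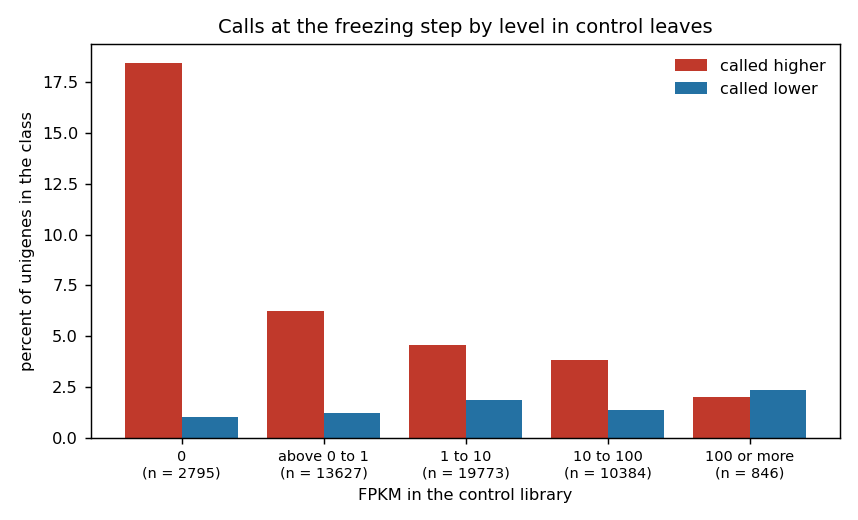
Percent of unigenes called higher (red) or lower (blue) at the freezing step of acclimated leaves, by FPKM class in the control library, with the number of unigenes in each class. Higher calls outnumber lower ones in every class under 100 FPKM and not at 100 FPKM or more; the heights of both classes under 1 FPKM depend on the count filter.

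From 300 bases up, longer unigenes were called higher more often, but not among unigenes with 100 to 1000 counts over the pair. The share called higher was 7.44% at 2000 bases or more, 6.83% at 1000 to 2000, 5.45% at 500 to 1000, 4.12% at 300 to 500 and 4.23% under 300 bases. The median count over the pair was 1149 in the longest class and 8 in the shortest. Among unigenes with 100 to 1000 counts over the pair, a range added after the values above were seen, the longest class stood at 6.19% and the class of 300 to 500 bases at 11.0% of 653 unigenes. The order was thus turned round within that range of counts. The range was set on the compared pair, so a scarce unigene could enter it through a high count in the frozen library. Within it the median count still rose with length, from 149 under 300 bases to 510.5 at 2000 bases or more. What length itself contributed therefore cannot be read from that range.

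Unigenes whose identifiers share their first part, before the point, were called together more often than such unigenes were called at all. There were 2287 such groups with at least 2 unigenes, holding 4812 unigenes in all, of which 6.19% were called higher and 1.45% lower. Each called unigene was paired with each of its partners, and pairings were pooled over groups, so 2 partners called alike entered 2 times. For unigenes called higher, the partner was called higher too in 126 of 345 pairings (36.5%) and lower in 2. For unigenes called lower, the partner was called lower in 16 of 81 pairings (19.8%) and higher in 2. Reads may be divided between similar unigenes, and how they were counted is not stated in the labels or the file, so partners are not independent of each other.

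Most of the top-ranked transcripts were the same before and after the freezing step. Ranked by FPKM, 84 of the 100 most abundant unigenes of the acclimated then frozen library were also among the 100 of the acclimated library. Ranked by counts it was 74, and in the pair without acclimation 80 were shared by FPKM. The 16 that entered had a median of 921 FPKM in acclimated then frozen leaves and 232 FPKM in acclimated leaves, and 11 of them were called higher. In leaves frozen without acclimation their median was 546 FPKM, and in control leaves 21.7 FPKM, so that their median was far lower in control leaves. None of the 16 was among the 100 most abundant of control leaves, and 6 were among those of leaves frozen without acclimation. The 16 that dropped out had a median of 569 FPKM in acclimated then frozen leaves and 728 FPKM in acclimated leaves, and 2 of them were called lower.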

How the data were processed

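RNA was extracted with Trizol and libraries made by standard Illumina protocols, per the labels' protocols. The deposited table gives raw counts, as whole numbers, for every unigene. The authors' FPKM values can be rebuilt from those counts, each library's total and a constant length per unigene, so FPKM is scaled by total counts and the lengths given here are those implied. Bowtie 0.12.2, Cufflinks and the mouse build mm8 are named, per the submitters' processing notes; the assembler, counting rule and strand are not given in the sources used here.

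Libraries were scaled by TMM over the 4 libraries (edgeR 4.0.16, R 4.3.3; factors 0.928 acclimated then frozen, 0.976 acclimated, 1.11 frozen without acclimation, 0.993 control). Ratios have exact Clopper-Pearson 95% intervals (scipy 1.17.1), and log2 ratios use a prior count of 0.5. The calculation was tested on simulated data. With 1 library a side no test was run. Alternatives were other scalings, count filters, call rules and prior counts. Named unigenes, at most 2 in each direction, are the called one whose interval lies farthest from equality and the called one with the largest CPM difference. The unigenes, classes and rules were chosen with earlier results of these data known.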

Additional observations from a re-analysis of the deposited data

Results flagged for a closer look

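Unigene c112305.graph_c0 moved in opposite directions in the 2 freezing steps, with both counting intervals clear of equal levels. Its log2 ratio was -8.30 for acclimated then frozen over acclimated leaves and 1.84 for leaves frozen without acclimation over control leaves. Other unigenes also reversed. Beyond 2-fold, 42 of the 720 lower and 7 of the 2674 higher unigenes were called the opposite way without acclimation. Over all unigenes compared in that pair, 5.19% were called higher and 2.15% lower, so no excess of reversals is read from these counts. With 1 library a group, none of these differences was tested.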

How the results depend on the processing

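Other scalings kept the number of higher and lower calls within 1.5 times. The share of calls that were higher was 74.3% with total counts, 81.9% with median-of-ratios factors and 82.8% with TMM over the pair alone. In the same order of settings the median log2 ratio over all unigenes was -0.16, -0.031 and -0.0030. Unigenes called higher held 13.2%, 14.0% and 14.1% of the acclimated then frozen library, and those called lower held 4.53%, 3.36% and 3.26% of the acclimated library. Of unigenes at 0 in control leaves, 19.96% were called higher with median-of-ratios factors and 20.04% with the pair alone.

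The call rule moved more. With an interval that only excluded equal levels, 8090 unigenes were higher and 9354 lower (46.4% higher). These held 40.2% of the acclimated then frozen and 49.0% of the acclimated library, and the share called higher was 34.6% at 0 in control leaves and 31.7% at 2000 bases or more. A 99% interval gave 438 lower calls (82.6% of calls higher), 58 lower beyond 4-fold and 13 beyond 8-fold, shares of 13.4% and 3.65% of those libraries, and 11.4% at 0 in control leaves. The log2(FPKM + 1) rule gave 2055 lower calls (62.8% of calls higher), shares of 13.96% and 5.27%, and 24.1% at 0 in control leaves.

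Requiring 100 counts gave 1638 higher and 444 lower calls, since fewer unigenes were tested. The median log2 ratio was then -0.10, the shares 13.5% and 3.82%, the share at 0 in control leaves 81.8%, and 48 unigenes appeared and 3 were lost. The median in the class above 5 without acclimation was 4.75. With no filter the median over all was -0.043 and the share at 0 in control leaves 2.41%, and a prior count of 2 gave a median of -0.067. A minimum of 30 counts left 82 appearing and 6 lost unigenes. Among unigenes with 100 to 1000 counts over the pair, an alternative chosen after seeing the data, 6.19% at 2000 bases or more were called higher. Of the 1000 most abundant unigenes, 791 were shared, and of the 100 ranked by counts, 74.

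A further 328 values under these alternatives, none of them a number of calls, were set against the 95% interval of the reported value. Of these, 143 stayed within it and 185 did not, and the cause was not tested. For medians over unigenes and shares of unigenes called, that interval treats unigenes as independent and serves only as a yardstick. Class medians of the log2 ratio cannot change with the call rule, yet they are counted among the values that stayed. The medians kept their order across classes of the freezing ratio without acclimation in all 5 alternatives of scaling and filter. The share called higher fell with control level in 6 of 8 alternatives, the exceptions being no filter and the interval that only excluded equal levels. With that interval the share rose from 1 FPKM up. No paired analysis was possible because each treatment has 1 library. Counting error limits unigenes of few counts, and the spread between plants, which no interval here holds, is unknown.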
